A study of Caenorhabditis elegans with 2 samples.

Results

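The genes described here code for the translation initiation and elongation factors of Caenorhabditis elegans, and the question was where NFYA-1 lay relative to their starts. The members were taken by name from the Ensembl WBcel235 annotation, as nuclear protein-coding genes named eif-*, eef-* or ife-* with iff-1, iff-2, ifg-1, inf-1 and egl-45. This gave 41 of 19973 nuclear protein-coding genes, of which 32 were counted as initiation factors, 6 as elongation factors, 2 as eIF5A genes and 1 as the eIF6 gene. Chromatin immunoprecipitation sequencing (ChIP-seq) was done on whole L3 hermaphrodite larvae of strain OP404 (unc-119(tm4063) III; wgIs404). These worms express NFYA-1, a worm A subunit of the CCAAT-binding factor NF-Y, with GFP and FLAG at its C terminus, and chromatin sheared by sonication was immunoprecipitated through the GFP. The study had 1 group of 2 libraries, labelled as biological replicates, and both carry the same alleles and transgene. The labels used here do not say from which promoter the tagged protein was made. With 1 group, no test between conditions was possible, and no p-value is given.

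Translation starts when eIF2 brings the initiator tRNA to the small ribosomal subunit, while eIF3, eIF1 and eIF1A hold the subunit ready and eIF4E, eIF4G and eIF4A recruit the capped mRNA to it. In elongation, eEF1A delivers each aminoacyl-tRNA, the eEF1B complex recharges eEF1A with GTP, and eEF2 moves the ribosome along by a codon. Worms hold several genes for the cap-binding protein eIF4E (the ife genes) and for eIF5A (iff-1 and iff-2), some of which are known mainly from the germline and others from somatic tissue.

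A gene is called bound below when a summit of a peak on the authors' list, thresholded by the irreproducible discovery rate (IDR, a measure of agreement between replicates), fell in its promoter window, from 500 bp before to 200 bp after the annotated start. The list holds 6932 peaks on ce11, ranked here by their signal value, which is the authors' own, has no stated scale and was compared only within a list. The signal of these peaks ran from 53.5 to 12400.7 with a median of 121.0. The relaxed lists behind it, 1 per replicate and 1 from both together, hold 30000 regions each. Peak lists do not give read depth, so depth is unknown here, and intervals on shares cover counting error only.

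NFYA-1 summits stood before most translation factor genes. Of the 41 members, 31 were bound (75.6%, 95% Wilson interval 60.7 to 86.2), against 15.6% of all 19973 nuclear protein-coding genes. Each bound member had a single summit in its window. Their signal ran from 55.5 at eif-4A3, the gene for a helicase of the exon junction complex, to 1139.7 at eef-1A.1. The median rank of the bound members was 1670, and that of all 3122 bound protein-coding genes was 2607. Among the 693 strongest peaks lay the summits of 29.0% of bound members and of 13.4% of all bound genes. For the bound initiation factor genes alone the share was 13.6%. By name rule alone the 80 cytosolic ribosomal protein genes had 66 bound (82.5%, interval 72.7 to 89.3) and the 31 aminoacyl-tRNA synthetase genes had 14 (45.2%, interval 29.2 to 62.2). These shares are descriptions, and no difference between the families was tested. The worms of both libraries carry the tag and no library of another factor was used, so binding by NFYA-1 cannot be told apart from general precipitation of these promoters.

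**Figure D1:**
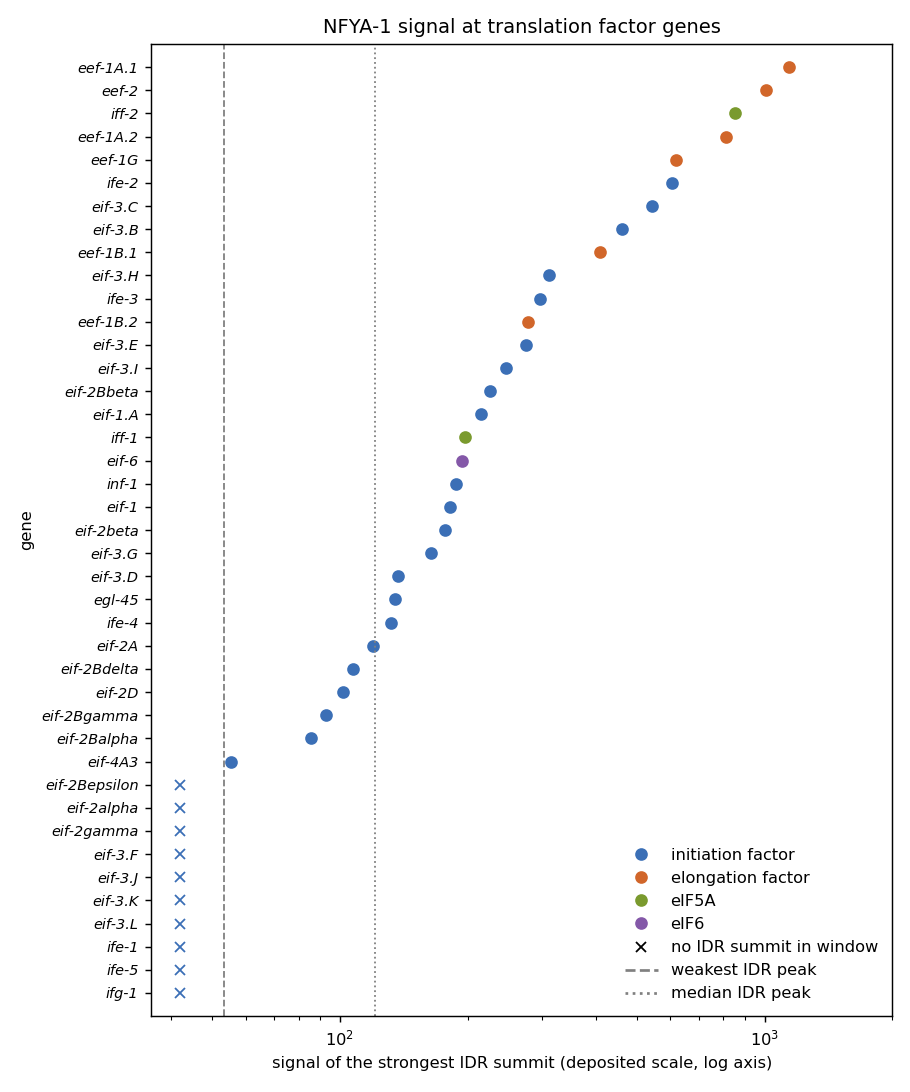
Signal of the strongest IDR summit in the promoter window of each of the 41 genes, on a log axis in the deposited scale, coloured by class. Crosses are the 10 genes with no such summit, drawn at an arbitrary place left of the weakest IDR peak. The 6 elongation factor genes lie between 277.9 and 1139.7.

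All elongation factor genes were bound, and their summits were among the strongest of the family. Both eEF1A genes had a summit nearly 400 bp before the gene. At eef-1A.1 (WBGene00001168, minus strand of chromosome III, 6970026 to 6971712) the summit at 6972104 was intergenic, 392 bp upstream, with a signal of 1139.7 and rank 38. Its signal was 672.6 in replicate 1 (rank 39) and 470.0 in replicate 2 (rank 47). At eef-1A.2 (WBGene00001169, plus strand of chromosome X, 7823654 to 7825769) the summit at 7823266 was 388 bp upstream, with a signal of 810.1 and rank 111. Replicate 1 gave 473.6 (rank 108) and replicate 2 gave 347.9 (rank 123). Both genes thus stood near the top of either replicate. The eEF1B subunit gene eef-1G (WBGene00008920, plus strand of chromosome V, 10965719 to 10967922) had its summit at 10965683, which was 36 bp upstream, with a signal of 619.7 and rank 218. In the replicates its signal was 333.3 (rank 265) and 285.4 (rank 189).

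The bases within 50 bp of these summits are shown to compare the strong peaks of the elongation factors. They run 5′ to 3′ on the strand of the gene, from the ce11 reference genome at chrIII:6972054-6972154, chrX:7823216-7823316 and chrV:10965633-10965733. Capitals mark CCAAT, the NF-Y box, GAGAGA, a GA-rich 6-mer common at the peaks of the list, and CGCGCA, on either strand.
eef-1A.1: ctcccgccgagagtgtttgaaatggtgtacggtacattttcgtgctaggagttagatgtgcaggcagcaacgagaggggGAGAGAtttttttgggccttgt
eef-1A.2: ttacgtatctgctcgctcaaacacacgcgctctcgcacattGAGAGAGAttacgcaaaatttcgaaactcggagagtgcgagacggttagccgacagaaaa
eef-1G: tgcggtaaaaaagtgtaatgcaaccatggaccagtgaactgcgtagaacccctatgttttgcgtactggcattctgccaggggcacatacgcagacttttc
None of the 3 holds CCAAT. Both eEF1A windows hold GAGAGA, and the longest run that they have in common on either strand is 8 bp. GAGAGA was also in 2 of the 4 windows centred 300 bp to either side of these summits. Over all bound genes it was at 23.4% of the summits. The window of eef-1G holds none of the 3 motifs.

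The other elongation factors were bound at or just before their starts. At eef-2 (WBGene00001167, plus strand of chromosome I, 9163531 to 9166952), which codes for the translocase, the summit at 9163517 was 14 bp upstream with a signal of 1006.6 and rank 64. Replicate 1 gave 590.2 (rank 53) and replicate 2 gave 415.6 (rank 68). It was the sole elongation factor gene with CCAAT within 50 bp of its summit. The eEF1B subunit gene eef-1B.1 (WBGene00018846, chromosome III) had its summit at 7973370, in its own 5′ UTR and 16 bp downstream of the annotated start, the only bound member with a summit past its start. Its signal was 409.9 (rank 555), with 224.4 in replicate 1 (rank 593) and 184.8 in replicate 2 (rank 528). The weakest of the class was eef-1B.2 (WBGene00012768, chromosome IV), with a summit at 15037166, 165 bp upstream, a signal of 277.9 and rank 1085. It had 156.5 in replicate 1 (rank 1136) and 125.1 in replicate 2 (rank 1053). The order eEF1A and eEF2 above eEF1B held in both replicates.

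Initiation factor genes ranged from strong binding to none. Of 32, 22 were bound (68.8%, interval 51.4 to 82.0), and of 6 elongation factor genes all 6 were (interval 61.0 to 100). The median rank of the bound genes was 2180.5 for initiation and 164.5 for elongation, with median signals of 179.3 and 714.9. In replicate 2 alone the medians among the top regions were 2034 and 156, and in replicate 1 alone 2180.5 and 186.5. The classes overlapped, since 5 bound initiation factor genes ranked above eef-1B.2. Of the 693 strongest peaks, 5 of the 6 elongation and 3 of the 22 bound initiation factor genes held one. These are 83.3% and 13.6%, and the initiation share is near the 13.4% of all bound genes. With eIF5A, which acts mainly in elongation, all 8 of 8 elongation genes were bound (interval 67.6 to 100). With the narrow window, from 200 bp upstream to 100 bp downstream, 8 initiation and 4 elongation factor genes were bound, at median ranks of 3689.5 and 386.5, and without peaks that share a run of 20 bp with another peak the counts were 12 and 6. Genes are not replicates of a class, and the intervals of the 2 bound shares overlap.

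Ranks at the members were alike in the replicates. Across the 31 bound members, all of which had a region in both relaxed lists, the ranks in the replicates had a Spearman correlation of 0.945, a description over genes that come from the same libraries. Over all 3038 bound genes with a region in both lists it was 0.905. The IDR list keeps peaks that agree between these same replicates, so agreement at bound genes was in part set by that choice. Of the bound members, 30 had a region among the 6932 strongest of each replicate, and eif-4A3 was the exception, at rank 7482 in replicate 1 and 7469 in replicate 2. The largest ratio between ranks in the 22 initiation factor genes was 2.12, at eif-2beta (3107 and 1467), and in the 6 elongation factor genes it was 1.40, at eef-1G. The summits of the replicates differed by a median of 9 bp and at most 42 bp.

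**Figure D2:**
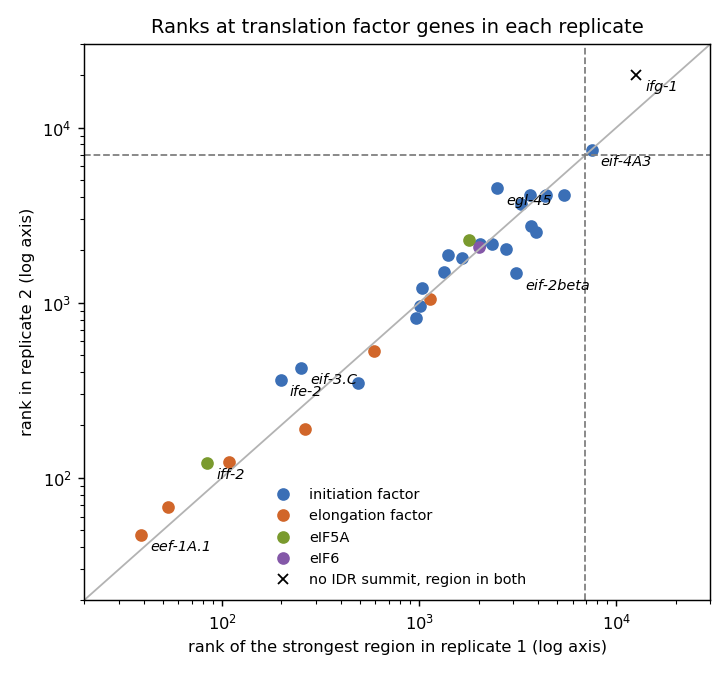
Rank of the strongest region in the promoter window in replicate 1 and replicate 2, both on log axes, for the 31 bound genes (dots, by class) and for ifg-1 (cross), which had a region in both lists but no IDR summit. The grey diagonal marks equal ranks and dashed lines mark rank 6932. The elongation factor genes lie toward the strong end in both replicates.

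Among paralogues, every somatic gene was bound, and of the germline genes some were and some were not. From general knowledge of published expression, ife-1, ife-3, ife-5 and iff-1 were taken as germline genes and ife-2, ife-4 and iff-2 as somatic ones. These labels do not come from the data used here, and expression in the other tissue was not checked. Of the 4 germline genes 2 were bound (50%, interval 15 to 85), and of the 3 somatic genes all 3 were (interval 43.9 to 100), counts too small to set the groups apart. The germline interval takes in the 15.6% of all nuclear protein-coding genes that were bound. In a whole animal, binding in few cells and weak binding in many cannot be told apart.

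Both eIF5A genes were bound, at different ranks. At iff-2 (WBGene00002065, minus strand of chromosome II, 8559375 to 8561367), the somatic gene, the summit at 8561438 was 71 bp upstream with a signal of 853.2 and rank 99. Replicate 1 gave 516.1 (rank 84) and replicate 2 gave 349.5 (rank 121). At iff-1 (WBGene00002064, minus strand of chromosome III, 9745862 to 9747193), the germline gene, the summit at 9747370 was 177 bp upstream with a signal of 196.6 and rank 1926. It had 118.8 in replicate 1 (rank 1799) and 76.3 in replicate 2 (rank 2264). The somatic gene was thus the higher in both replicates. The windows of both are printed with that of the somatic eIF4E gene ife-2, the initiation factor gene with the highest signal, from chrII:8561388-8561488, chrIII:9747320-9747420 and chrX:382857-382957, on the strand of the gene and with capitals as above.
iff-2: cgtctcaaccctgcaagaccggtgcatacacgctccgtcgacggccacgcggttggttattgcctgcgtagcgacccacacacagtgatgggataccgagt
iff-1: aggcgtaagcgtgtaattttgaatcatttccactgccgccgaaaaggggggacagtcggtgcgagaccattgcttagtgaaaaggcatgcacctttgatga
ife-2: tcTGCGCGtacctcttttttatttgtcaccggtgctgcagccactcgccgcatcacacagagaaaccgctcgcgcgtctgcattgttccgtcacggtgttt
No CCAAT lies in these 3 windows. The capitals in ife-2 are CGCGCA read on the other strand, and the longest run common to iff-1 and iff-2 is 8 bp.

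The eIF4E genes ranged from strong binding to none. At ife-2 (WBGene00002060, chromosome X) the summit at 382907 was 198 bp upstream with a signal of 604.1 and rank 239, and the replicates gave 377.0 (rank 198) and 221.9 (rank 361). The other somatic gene, ife-4 (WBGene00002062, chromosome X), was much weaker, with a summit at 1103902, 310 bp upstream, a signal of 131.8 and rank 3150. Its replicate signals were 66.5 (rank 3701) and 65.7 (rank 2730). The germline gene ife-3 (WBGene00002061, chromosome V) lay between them, with a summit at 8258, 430 bp upstream, a signal of 296.4 and rank 989, and with 166.4 in replicate 1 (rank 1008) and 131.7 in replicate 2 (rank 959). Under the tissue labels used here, a germline gene thus outranked a somatic one within the family.

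No IDR summit stood before the other two germline eIF4E genes. At ife-1 (WBGene00002059, chromosome III) the window held a region of rank 22512 in the pooled relaxed list (signal 12.9) and one of rank 16948 in replicate 2 (signal 8.4), and none in replicate 1. The nearest IDR summit was 1338 bp downstream of its start, at rank 4236. At ife-5 (WBGene00002063, chromosome II) no region of any relaxed list lay in the window, and the nearest IDR summit was 11624 bp upstream.

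**Figure D3:**
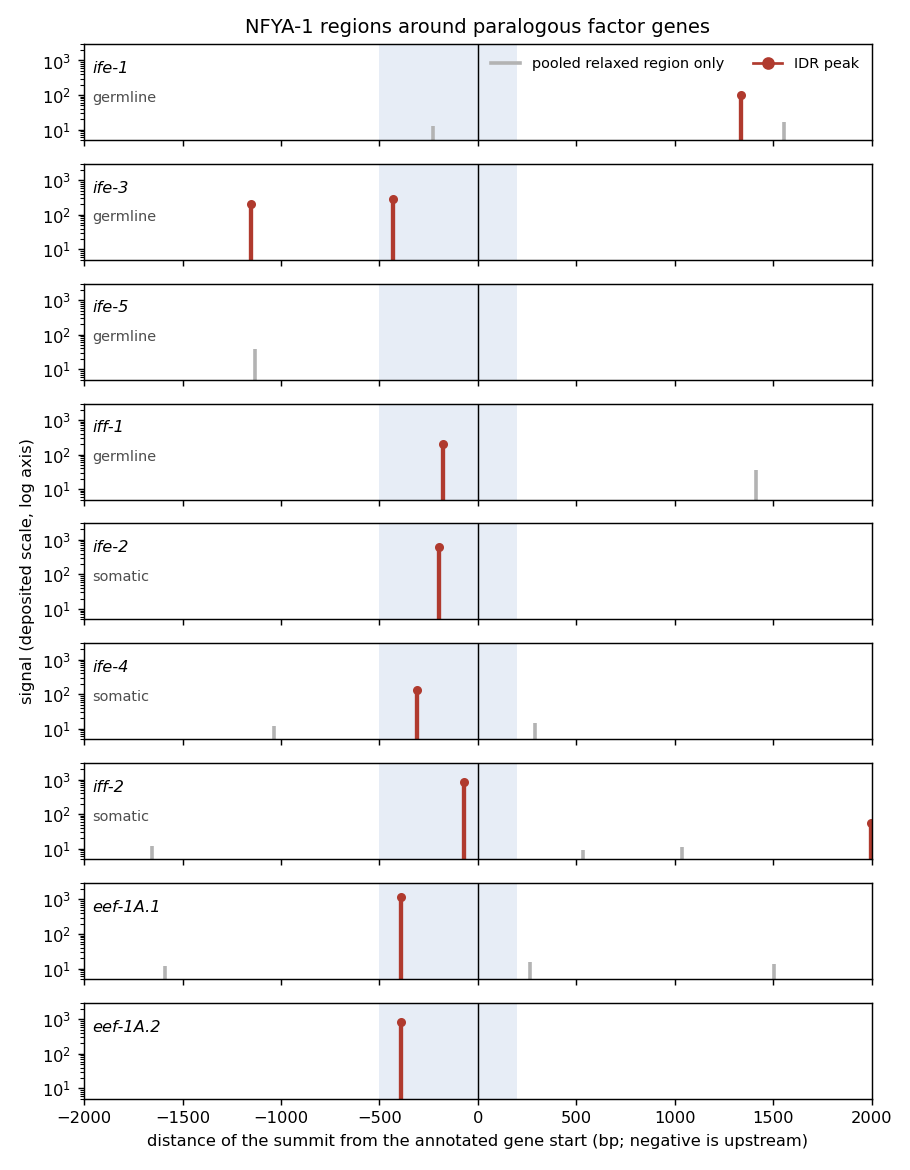
Summits within 2000 bp of the annotated start of the eIF4E, eIF5A and eEF1A genes, with signal on a log axis in the deposited scale. Red lines with dots are IDR peaks, grey lines are regions of the pooled relaxed list alone, and the shaded band is the promoter window. No red line stands in the band of ife-1 and ife-5.

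Genes for eIF3, the scaffold on the small subunit, were bound in 8 of 12 cases (interval 39.1 to 86.2), against 15.6% of all genes. Among them were 5 of the 8 initiation factor genes with the strongest summits. At eif-3.B (WBGene00001225, chromosome II) the summit at 14795135 was 269 bp upstream with a signal of 462.4 and rank 443, and the replicates gave 251.0 (rank 491) and 225.0 (rank 346). At eif-3.G (WBGene00001230, chromosome II), which was chosen after its sequence was seen and was weaker at a signal of 163.7 and rank 2454, the summit at 8442431 was 336 bp upstream, with 86.5 in replicate 1 (rank 2756) and 81.9 in replicate 2 (rank 2034). Their windows show the CG-rich 6-mer CGCGCA that recurs at initiation factor summits, and in eif-3.G also CCAAT (chrII:14795085-14795185 and chrII:8442381-8442481, plus strand).
eif-3.B: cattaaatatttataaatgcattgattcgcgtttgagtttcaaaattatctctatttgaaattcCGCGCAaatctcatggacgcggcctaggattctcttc
eif-3.G: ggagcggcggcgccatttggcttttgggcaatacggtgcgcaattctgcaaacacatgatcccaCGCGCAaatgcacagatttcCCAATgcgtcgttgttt

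The remaining bound eIF3 genes included 4 on chromosome I with summits at similar distances. At eif-3.C (WBGene00001226) the summit at 9979897 was 235 bp upstream with a signal of 544.6 and rank 308, and the replicates gave 340.3 (rank 251) and 205.4 (rank 424). At eif-3.H (WBGene00001231) it lay at 4444476, 243 bp upstream, with a signal of 310.6 and rank 910, and with 170.8 (rank 966) and 145.4 (rank 818) in the replicates. At eif-3.E (WBGene00001228) it lay at 10642490, 209 bp upstream, with a signal of 274.4 and rank 1113, and with 164.9 (rank 1028) and 113.9 (rank 1214). At eif-3.I (WBGene00001232) it lay at 2485639, 222 bp upstream, with a signal of 246.5 and rank 1337, and with 143.8 (rank 1334) and 100.8 (rank 1498). These 4 summits fell within 209 to 243 bp of the start. On chromosome III, eif-3.D was bound at rank 3015, and egl-45, the eIF3 subunit a gene, at rank 3072. The summit of egl-45 was 490 bp upstream, just inside the window, and its ranks in the replicates were 2488 and 4495.

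The genes for eIF2 and its exchange factor eIF2B were in part bound and in part not. Of the 3 subunits of eIF2, only eif-2beta was bound (rank 2232, 147 bp upstream, in an annotated noncoding gene). The interval of this share, 6.15 to 79.2, takes in the 15.6% of all genes. Of the 5 subunits of eIF2B, 4 were bound (interval 37.6 to 96.4), with eif-2Bbeta (WBGene00012950, chromosome I) the strongest at 225.3 and rank 1560. Its summit at 11893890 was 163 bp upstream, and the replicates gave 139.7 (rank 1401) and 86.8 (rank 1864). The genes eif-2Balpha, eif-2Bgamma and eif-2Bdelta had signals from 85.7 to 107.7 and ranks from 3882 to 4727, below the median peak of the list. The same was true of eif-2A (120.0) and eif-2D (101.7), whose products can bring tRNA to the ribosome apart from eIF2.

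Single genes stood for several further factors. The genes eif-1 and eif-1.A, whose products guard the choice of start codon, ranked 2129 and 1670, with summits 392 and 358 bp upstream. The eIF4A helicase gene inf-1 ranked 2049, 388 bp upstream. For eIF6, which keeps the large subunit apart from the small one, eif-6 ranked 1963, 321 bp upstream. At eif-4A3 the rank was 6744 and the signal 55.5, just above the weakest peak of the list.

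The members with no IDR summit in the window were all initiation factor genes. These 10 were eif-2alpha, eif-2gamma, eif-2Bepsilon, eif-3.F, eif-3.J, eif-3.K, eif-3.L, ife-1, ife-5 and ifg-1, the eIF4G gene. For 6 of them (eif-2Bepsilon, eif-3.F, eif-3.J, eif-3.K, eif-3.L and ife-5) no region of any relaxed list had its summit there. The nearest IDR summit was 21218 bp upstream of eif-2Bepsilon, 6529 bp upstream of eif-3.F and 1490 bp upstream of eif-3.K, and 3006 bp downstream of the start of eif-3.L. The nearest IDR summit to ifg-1 was 636 bp upstream, outside the window, at rank 1716 and in the 5′ UTR of M110.3. In its window ifg-1 held a weak region of rank 12644 in replicate 1 (signal 16.9) and 19995 in replicate 2 (signal 6.9). At eif-3.J the nearest summit was 950 bp upstream, at rank 511 and in the 3′ UTR of slc-25A46. At eif-2gamma a region of rank 1982 (signal 112.0) stood 133 bp upstream in replicate 1, and none stood in the window in replicate 2 or in the pooled list. At eif-2alpha the pooled list alone held a weak region (signal 16.3, rank 18496).

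Several unbound members followed closely behind another gene on the same strand. Of the 8 members with the nearest upstream protein-coding gene on the same strand and ending within 500 bp or overlapping, 3 were bound and 5 were not, whereas 28 of the other 33 members were bound. Over all protein-coding genes in that arrangement 10.5% were bound, against 35.4% where the neighbour within 500 bp lay on the opposite strand and 13.3% where it lay farther away. The 5 were eif-2alpha, 132 bp behind the prohibitin gene phb-1, eif-2gamma, 312 bp behind tbca-1, eif-3.F, 115 bp behind wbp-2, ife-5, 64 bp behind Y57A10A.29, and ife-1, which overlaps dro-1 by 296 bp. Of these upstream neighbours phb-1 was bound, at rank 351 and 465 bp before its own start, and the other 4 were not. Whether such genes are transcribed together was not tested, as operons are not annotated in the gene models used.

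Some of the bound members shared their summit with a gene on the opposite strand. In 14 of 31 (45.2%, interval 29.2 to 62.2) the summit also lay in the window of another protein-coding gene. For all bound genes the share was 37.8%, which lies within that interval, so sharing is not particular to the members. The neighbour was rfc-4, a clamp loader gene, at eef-1A.1 (149 bp upstream of it), ctf-4, a replisome gene, at eef-1G (144 bp), and clsp-1, the claspin gene, at eef-2 (251 bp). These neighbours act in DNA replication or its checkpoint, a grouping chosen after their names were seen and not tested. At iff-1 it was cdk-1, the mitotic kinase gene (102 bp), at eef-1B.1 the aconitase gene aco-2 (347 bp), and at eif-6 the proteasome gene pbs-2 (345 bp). The remaining neighbours were kcmf-1, vps-24, Y47H9C.8, ndub-5, R08D7.4, C41D11.3, abtm-1 and vps-20. The grouping thus covers a minority of the 14 neighbours. The lists do not say to which gene of a pair a summit belongs, so 4 of the 6 elongation factor summits are equally summits of a divergent neighbour.

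Summits of the members lay upstream of the starts with the exception of eef-1B.1. The median summit was 222 bp before the start, against 172 bp over all bound genes. Upstream summits were 30 of 31 for the members and 2893 of 3122 for all bound genes. The window itself reaches 500 bp upstream and 200 bp downstream. Of the 31, 28 were intergenic, 2 in a 5′ UTR (eef-1B.1, and at eif-4A3 that of the divergent vps-20) and 1 in a noncoding gene. The summits of 17 members stood more than 200 bp upstream. For this count and for the sites, the share of all bound genes is not given here. With a window from 200 bp upstream to 100 bp downstream only 14 members (34.1%) remained bound, against 8.61% of all genes, and both eEF1A genes dropped out. Many worm mRNAs are trans-spliced, so annotated starts can lie downstream of the start of transcription. Whether this applies to the members was not tested.

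**Figure D4:**
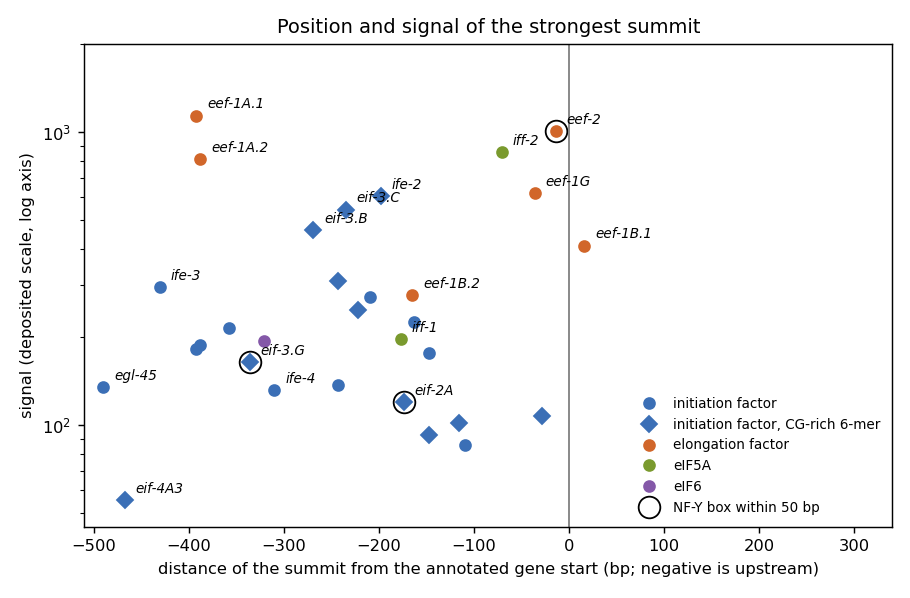
Signal, on a log axis in the deposited scale, against the distance of the strongest summit from the annotated start for the 31 bound genes, coloured by class. Diamonds have the CG-rich 6-mer and open circles the NF-Y box within 50 bp of the summit. The 3 open circles are eef-2, eif-3.G and eif-2A.

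The NF-Y box was no more frequent at the members' summits than in their flanks. CCAAT stood on either strand within 50 bp in 3 of 31 bound members (9.68%, interval 3.35 to 24.9), eef-2, eif-3.G and eif-2A. At the summits of replicate 1 alone the count was 6, and at those of replicate 2 alone it was 3. The share was 18.6% over all bound genes, 27.6% over all 6932 IDR summits, and 19.3% in windows centred 300 bp to either side of those. In the flanks of the members' own summits it was 22.6% (14 of 62). The interval of the members' summits takes in this share and that of all bound genes. The longer form of the motif (2 purines, CCAAT, C or G, and a purine) was at none of the 31, which allows a share of up to 11.0% by the Wilson interval, at 2.75% of the summits of all bound genes, which lies within that interval, at 11.1% of all IDR summits and at 1.27% of flanking windows. GAGAGA, counted on both strands, stood at 5 of 31 (16.1%), at 23.4% of the summits of all bound genes and at 28.4% of all IDR summits.

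A CG-rich 6-mer recurred at the summits of the initiation factor genes taken by the name rule. CGCGCA, which can overlap ACGCGC and was chosen after the sequences were seen, stood within 50 bp in 11 of 22 bound initiation factor genes (50%, interval 30.7 to 69.3) and in 0 of 6 elongation factor genes (interval 0 to 39.0). It was at 12.6% of the summits of all bound genes, 7.96% of all IDR summits and 1.68% of flanking windows. In gene sets outside the name rule, it was at 0 of 4 bound further initiation genes (interval 0 to 49.0). It was also at 0 of 3 bound termination and recycling genes, 0 of 3 mitochondrial factor genes and 1 of 2 regulators. At bound aminoacyl-tRNA synthetase genes it was at 3 of 14, and at cytosolic ribosomal protein genes at 1 of 66. Besides eif-3.B, eif-3.G and ife-2 printed above, it was at eif-3.C, eif-3.H, eif-3.I, eif-2A, eif-2Bgamma, eif-2Bdelta, eif-2D and eif-4A3. ACGCGC was at 11 of the 31 (35.5%) and 16.7% of all bound genes. By class it was at 10 of 22 initiation (interval 26.9 to 65.3) and 1 of 6 elongation factor genes (interval 3.01 to 56.4). For each of these 6-mers the intervals of initiation and elongation overlap. The 6-mers CGTCTC and ACGCAG were also counted. Each was at 4 of 31 members (12.9%), against 18.0% and 17.4% of all bound genes. G and C made up a median of 48.5% of the members' windows and 34.7% of their flanks, against 46.5% and 34.7% over all bound genes, and the part of base composition in these shares was not tested.

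Of the related genes outside the name rule, those of termination, initiation and mitochondrial translation were more often bound than not, on small counts. Of 4 termination and recycling genes 3 were bound (interval 30.1 to 95.4). The release factor gene erfa-1 was at rank 1266, erfa-3 at 3105 and pelo-1 at 4022. Of 7 further initiation genes 4 were, led by drr-2, an eIF4H homologue, at rank 66 with a signal of 989.9 and 169 bp upstream, and by pab-1, the poly(A)-binding protein gene, at rank 641. The eIF5B gene iffb-1 was not bound. Of 4 mitochondrial factor genes 3 were bound (interval 30.1 to 95.4), tufm-1 at rank 747 the strongest. Among 8 regulators, gcn-1 (rank 1618) and the stress factor gene atf-4 (rank 1848) were bound, while the eIF2 kinase genes gcn-2 and pek-1, the eEF2 kinase gene efk-1 and the TOR pathway genes let-363, daf-15 and rsks-1 were not. That is 25% (interval 7.15 to 59.1) for the regulators, which takes in the 15.6% of all genes. The count of regulators with a summit among the 6932 strongest regions was 2 of 8 in replicate 1 and 5 of 8 in replicate 2.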

How the data were processed

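ChIP-seq peak lists on ce11 were analysed for 1 group of 2 replicates. Per the deposited file descriptions, the authors called peaks and background for each replicate and for both together against a control, and derived the IDR list from these 3 lists. The deposited signal value and the summit offset (entered as a score) are the authors' own. Which aligner and peak caller were used is not given in the sources used here.

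Gene starts are the 5′ ends of genes in Ensembl release 115 (WBcel235, the assembly of ce11), and sequences are from the RefSeq copy of that assembly. A summit is the region start plus the offset, counted from 1. Motifs were sought within 50 bp of the summit and in windows of that width 300 bp to either side. The members, lists and classes were chosen with earlier results of these data known, and CGCGCA after seeing the sequences. Named members follow a rule: full values for elongation factors, paralogues, the 8 strongest initiation factors and unbound genes, with eif-3.G added after its sequence was seen. Of the related gene names, gfm-2, mtif-2 and mtif-3 matched no gene. Since names set the classes, eif-4A3 counted as initiation. Protein sequences were not used here. Window assignment and motif search were tested on simulated data. Tables were made in Python 3.11.15 with pandas 2.3.3 and numpy 2.4.6, Wilson 95% intervals with scipy 1.17.1, and plots with matplotlib 3.10.9.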

Additional observations from a re-analysis of the deposited data

How the results depend on the processing

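The count of 31 bound members was 14 with the narrow window (8 initiation and 4 elongation factor genes, 1 germline paralogue), and 20 (12 initiation, 6 elongation) when peaks with a 20 bp run found in any other IDR peak were dropped, which was added after seeing the data. Of the 11 members this removed, 9 shared with 1 other peak, eif-6 with 8 and ife-4, at a CT repeat, with 79, while 2011 of all 6932 IDR peaks share such a run. The other alternatives, from 25 (peaks ranked to 3466) to 34 (any pooled relaxed region), kept the count within 1.5 times. The share of all genes moved as well. It was 9.77% with peaks ranked to 3466, against 61.0% of members, and 30.1% with any pooled relaxed region, against 82.9%. With the narrow window it was 8.61%, against 34.1%. Leaving out replicate 1 or 2 it was 15.9% or 15.5%. For the 20 bp rule the share of all genes was not counted. Without replicate 1 or 2 the count was 30 or 31, and eif-4A3 was lost both times, while eif-2gamma was gained without replicate 2. The median rank of initiation factors became 3689.5 (narrow window), 1615 (peaks ranked to 3466) and 2454 (pooled relaxed list), and 2034 to 2180.5 leaving out a replicate. That of elongation factors became 386.5 (narrow window), and 156 to 186.5 leaving out a replicate. The median position of -222 bp became -131.5 (narrow window), -243 (window from 1000 bp upstream, and peaks ranked to 3466), -225 (any transcript start), -215.5 (pooled relaxed list) and -210 to -208 leaving out a replicate. CCAAT was at 3 members, at 7 within 100 bp, at 0 in its longer form and at 3 to 6 leaving out a replicate. The cause of these shifts was not tested. No paired analysis was possible because there is 1 group. Depth is unknown, so it sets no limit that can be stated.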
